A study of Mus musculus with 6 samples.

Results

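The genes described here are 5 carboxylesterases (Ces1d, Ces1f, Ces1g, Ces2e and Ces2g) and 5 genes of triglyceride lipolysis (Pnpla2, Lipe, Mgll, Abhd5 and G0s2) in mouse gastrocnemius muscle. The 10 genes were matched by symbol among the 49315 genes of the count table. They were chosen by the fall of Ces1d in muscle expressing an active aryl hydrocarbon receptor (AHR), so their differences between the groups are given as descriptions, with no p-values. Where members are counted as called or not, the count only describes that choice. Of the 10 genes, 7 passed the filter on low counts, and Ces1f, Ces1g and Ces2e did not.

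Messenger RNA was sequenced from the gastrocnemius of male C57BL6J mice, an inbred strain, whose muscle received an adeno-associated virus at 5 months of age and was taken 5 months later. AAV9-HSA-CAAHR (replicates 31, 34 and 36) carried a constitutively active AHR, a mouse AHR without its ligand-binding domain, and AAV9-HSA-GFP (replicates 42, 43 and 46) carried green fluorescent protein. In both groups the human skeletal actin (HSA) promoter directed the transgene to muscle fibres, while the RNA came from the whole muscle with its blood vessels, connective tissue, fat and immune cells. Every muscle had received a virus, and uninjected muscle was not analysed here. The study reports a local immune response to AAV9-HSA-GFP. By its quantitative PCR, selected immune genes were not lower in AAV9-HSA-CAAHR than in muscle without virus. Lower and higher below are therefore relative to AAV9-HSA-GFP only.

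Stored triglyceride is broken down in steps at the surface of the lipid droplet. Adipose triglyceride lipase (Pnpla2) removes the first fatty acid with its coactivator Abhd5 and is held back by its inhibitor G0s2, hormone-sensitive lipase (Lipe) acts mainly on the diacylglycerol that remains, and monoacylglycerol lipase (Mgll) releases the last fatty acid. Carboxylesterases are serine hydrolases, mostly of the endoplasmic reticulum, that cleave ester bonds in drugs and in lipids. Ces1d is best known in liver and fat, where it hydrolyses triglyceride, and the Ces2 enzymes are best known in intestine and liver.

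The carboxylesterase genes lie on chromosome 8, in separate Ces1 and Ces2 clusters (GRCm38, GENCODE release 21), with Ces1d at chr8:93166068-93197838, Ces1f at chr8:93256236-93279747 and Ces1g at chr8:93302369-93337308 on the minus strand, and Ces2e at chr8:104926260-104934672 and Ces2g at chr8:104961718-104969537 on the plus strand. Because close copies could share reads, the coding sequences were compared. Identity with the Ces1d coding sequence was 78.4% for Ces1f, 80.7% for Ces1e and 81.8% for Ces1g, and it was 67.4% for Ces2e and 67.1% for Ces2g. The 60 coding bases around the codon of the catalytic serine are shown for the Ces1 genes that the results turn on, because they hold the active site and show how the copies can be told apart there. In Ces1d (chr8:93187743-93187802, minus strand) the capitals mark the serine codon, and in Ces1e (chr8:93217499-93217558), Ces1f (chr8:93269974-93270033) and Ces1g (chr8:93328378-93328437), all minus strand, they mark bases that differ from Ces1d.
Ces1d: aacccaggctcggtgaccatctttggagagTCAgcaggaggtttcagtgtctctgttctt
Ces1e: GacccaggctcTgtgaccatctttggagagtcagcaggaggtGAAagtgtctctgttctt
Ces1f: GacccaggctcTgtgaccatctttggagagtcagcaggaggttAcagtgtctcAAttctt
Ces1g: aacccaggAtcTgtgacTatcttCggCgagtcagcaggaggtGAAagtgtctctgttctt
In this stretch Ces1e and Ces1f differed from Ces1d at 5 bases each and Ces1g at 8. None of the 2266 windows of 100 bases in the Ces1d transcript occurred in a transcript of another gene, and the same held for the other 4 carboxylesterases.

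The libraries held between 43432994 and 58825752 counts, and levels are given below as CPM, each count relative to its library total, with totals scaled by TMM (trimmed mean of M values). Cyp1a1, the classical AHR target, was at 1231, 1680 and 1517 CPM in AAV9-HSA-CAAHR replicates 31, 34 and 36. It was between 5.85 and 7.74 CPM in the AAV9-HSA-GFP muscles. AAV9-HSA-CAAHR replicate 34 stood apart within its group, with a summed level of 8 slow fibre markers of 646 CPM against 2507 and 2772 CPM in replicates 36 and 31. Replicate 34 also had the highest Cyp1a1, Cyp1b1 and Ahr of its group, with Ahr at 22.8 CPM against 9.97 and 17.3 CPM in replicates 31 and 36. Ahrr, another AHR target, was highest in replicate 36. The tissue label held in all 6 libraries, since skeletal muscle markers were abundant in each. Their sum over 7 genes was 121300 to 155400 CPM in AAV9-HSA-CAAHR and 177400 to 181400 CPM in AAV9-HSA-GFP, so it did not overlap. Nothing in the labels says that the libraries came from separate animals, and the p-values below measure the spread between these libraries, which may in part be technical. In whole muscle, fewer cells of a type and less RNA per cell cannot be told apart.

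Ces1d was the member with the clear difference. Its level was 8.44, 7.23 and 6.18 CPM in AAV9-HSA-CAAHR replicates 31, 34 and 36, from 427, 413 and 377 counts. In AAV9-HSA-GFP replicates 42, 43 and 46 it was 33.0, 35.9 and 28.2 CPM, from 1594, 1492 and 1495 counts. The groups were far apart, and the lowest AAV9-HSA-GFP library lay well above the highest AAV9-HSA-CAAHR library. The means were 7.29 ± 1.13 and 32.4 ± 3.86 CPM (SD, n = 3 each), a ratio of 4.44 in favour of AAV9-HSA-GFP, and the fitted log2 fold change was -2.15 ± 0.14 (SE). Without AAV9-HSA-CAAHR replicate 34 it was -2.16.

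The other carboxylesterases were near the limit of detection in this muscle. Ces1f, a close relative of Ces1d from the same cluster, had 1, 1 and 3 counts in the AAV9-HSA-CAAHR libraries and 14, 5 and 18 counts in the AAV9-HSA-GFP libraries. All 3 of its AAV9-HSA-GFP libraries were above all 3 AAV9-HSA-CAAHR libraries, but the gene did not pass the filter on low counts. It was fitted under 6 alternative settings, with log2 fold changes from -3.61 to -2.76, and was called in 3 of them (no filter on low counts, DESeq2, and without AAV9-HSA-GFP replicate 43). Pooled over the libraries, 5 counts stood against 37, a depth-corrected ratio of 8.74 in favour of AAV9-HSA-GFP with an exact 95% interval of 3.43 to 28.5, which covers counting error only. Ces1g, which acts on lipids in liver, had 0 counts in all 6 libraries. At these depths a count of 0 allows a level of up to 0.0492 to 0.0721 CPM, taking 3 counts as the limit.

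Ces2g, a carboxylesterase of the second family, had 9, 8 and 10 counts (0.178, 0.140 and 0.164 CPM) in AAV9-HSA-CAAHR muscle. In AAV9-HSA-GFP muscle it had 39, 12 and 15 counts (0.808, 0.288 and 0.283 CPM). The groups did not overlap, but replicate 42 alone set much of the distance. The log2 fold change was -1.51 ± 0.51 with all libraries and -0.82 without AAV9-HSA-GFP replicate 42, and of 13 alternatives 1 (no filter on low counts) called it. Ces2e had 3, 1 and 0 counts in AAV9-HSA-CAAHR muscle and 1 count in each AAV9-HSA-GFP library, so no difference was detectable at this depth.

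**Figure D1:**
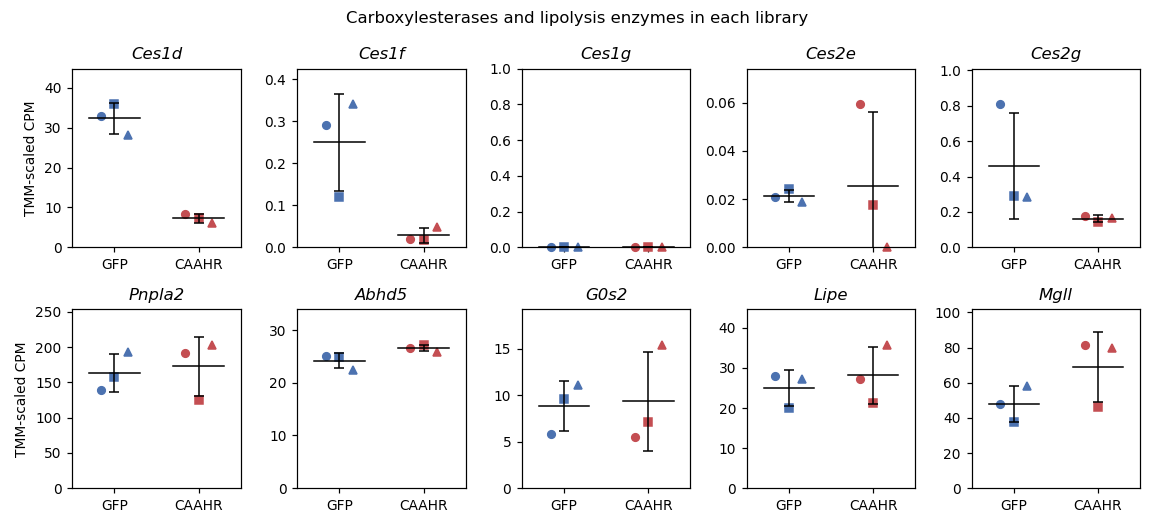
Level of each of the 10 genes, in TMM-scaled CPM (linear axes from 0), in 3 AAV9-HSA-GFP and 3 AAV9-HSA-CAAHR libraries. Circles, squares and triangles are replicates 42, 43 and 46 of AAV9-HSA-GFP and replicates 31, 34 and 36 of AAV9-HSA-CAAHR, lines are means and bars are SD (cut at 0). Ces1d lies between 28.2 and 35.9 CPM in AAV9-HSA-GFP and between 6.18 and 8.44 CPM in AAV9-HSA-CAAHR, while the groups overlap for Pnpla2, G0s2, Lipe and Mgll.

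The genes of the canonical lipase pathway differed less between the groups than Ces1d. Pnpla2 (chr7:141455198-141460743), the enzyme of the initial step, was at 191, 125 and 203 CPM in AAV9-HSA-CAAHR replicates 31, 34 and 36 and at 139, 158 and 193 CPM in AAV9-HSA-GFP replicates 42, 43 and 46. The groups overlapped, the lowest library being AAV9-HSA-CAAHR replicate 34 and the highest replicate 36 of the same group. Its log2 fold change was 0.08 ± 0.19, and 0.26 without AAV9-HSA-CAAHR replicate 34.

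The coactivator of Pnpla2, Abhd5 (chr9:122351608-122381524), varied least within the groups among the 6 abundant members. Its level was 26.6, 27.1 and 25.9 CPM in AAV9-HSA-CAAHR muscle and 25.0, 24.9 and 22.5 CPM in AAV9-HSA-GFP muscle. All AAV9-HSA-CAAHR libraries were above all AAV9-HSA-GFP libraries, though by a small margin, and the log2 fold change was 0.14 ± 0.09. The inhibitor of Pnpla2, G0s2 (chr1:193272161-193273217), varied most within the groups among the 6 abundant members, at 5.50, 7.11 and 15.4 CPM in AAV9-HSA-CAAHR muscle and 5.84, 9.57 and 11.1 CPM in AAV9-HSA-GFP muscle. The groups covered much the same range, and the log2 fold change was 0.08 ± 0.44, which moved between -0.49 and 0.34 over the alternative settings. The G0s2 level per base of exon was 0.0997 to 0.263 of that of Pnpla2 in AAV9-HSA-CAAHR muscle and 0.146 to 0.210 in AAV9-HSA-GFP muscle, so the ratio of inhibitor to lipase overlapped between the groups.

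Lipe (chr7:25379527-25398710, minus strand), the hormone-sensitive lipase, was at 27.3, 21.4 and 35.7 CPM in AAV9-HSA-CAAHR muscle and 27.9, 19.9 and 27.3 CPM in AAV9-HSA-GFP muscle. The ranges overlapped, replicate 36 lying above every AAV9-HSA-GFP library, and the log2 fold change was 0.17 ± 0.20. Mgll (chr6:88724412-88828360), the enzyme of the last step, was at 81.3, 45.9 and 79.5 CPM in AAV9-HSA-CAAHR muscle and 47.9, 37.8 and 58.3 CPM in AAV9-HSA-GFP muscle. Here replicates 31 and 36 were above every AAV9-HSA-GFP library, and replicate 34 lay among them. The log2 fold change of Mgll was 0.52 ± 0.25 with all libraries and 0.73 without AAV9-HSA-CAAHR replicate 34, and it was positive under all 14 alternative settings, of which 2 (no filter on low counts, and without that library) called it. The 3 genes Lipe, Mgll and Abhd5 overlap antisense transcripts, whose counts reached at most 57, 4 and 9 in any library against at least 828, 1573 and 1037 for the genes themselves.

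Among the 7 members that were fitted, 1 (Ces1d) was called, at an adjusted p under 0.05, and it was lower. Over all 15847 tested genes, 7.60% had an adjusted p under 0.05, 3.04% higher and 4.57% lower in AAV9-HSA-CAAHR. Lower genes made up 60.1% of these calls, but 73.4% with upper quartile scaling and 40.7% with scaling by library size only. The groups did not overlap for 3 of the 7, Ces1d and Ces2g lower and Abhd5 higher, beside 29.9% of all tested genes. Since the genes were chosen on this contrast, nothing is read from these shares. The median log2 fold change was 0.08 over the 7 genes and 0.01 over all tested genes.

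Levels of different genes were compared per kilobase of exon. In AAV9-HSA-GFP muscle the order ran from Pnpla2 at 54.0 ± 8.97 CPM per kb to Ces1d at 13.7 ± 1.63, G0s2 at 10.1 ± 3.10, Mgll at 9.46 ± 2.02, Lipe at 4.26 ± 0.76 and Abhd5 at 4.05 ± 0.24 CPM per kb (SD, n = 3). Pnpla2 was above all others in each library, the ranges of Ces1d, G0s2 and Mgll overlapped their neighbours in this order, and so did those of Lipe and Abhd5. In AAV9-HSA-CAAHR muscle the order was Pnpla2 at 57.3 ± 13.9, Mgll at 13.6 ± 3.93, G0s2 at 10.7 ± 6.08, Lipe at 4.78 ± 1.22, Abhd5 at 4.46 ± 0.10 and Ces1d at 3.08 ± 0.48 CPM per kb. Ces1d thus stood next to Pnpla2 in AAV9-HSA-GFP muscle and below the other 5 abundant members in AAV9-HSA-CAAHR muscle. In the latter its highest library (3.56 CPM per kb) was just under the lowest of Lipe (3.63 CPM per kb). Per base of exon, the ratio of Ces1d to Pnpla2 was 0.187 to 0.302 in AAV9-HSA-GFP libraries and 0.0389 to 0.0738 in AAV9-HSA-CAAHR libraries.

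Fat cells express Ces1d and most of the lipolysis genes, so 12 adipocyte markers were read beside them. Of the 11 that were tested, 3 (Plin1, Retn and Cfd) were lower in AAV9-HSA-CAAHR with an adjusted p under 0.05 in edgeR, beside 7.60% of all tested genes. The other 8 did not pass, and the median log2 fold change was -2.00. DESeq2 called 5 of the list and limma-voom 2. Fabp4 and Pparg had log2 fold changes of -0.03 ± 0.23 and 0.02 ± 0.23. All 3 edgeR calls were lost without AAV9-HSA-CAAHR replicate 31 or without AAV9-HSA-GFP replicate 46 (adjusted p 0.0515 to 0.130 in edgeR). The summed level of the 12 markers was 100.8 to 157.6 CPM in AAV9-HSA-CAAHR and 125.1 to 248.3 CPM in AAV9-HSA-GFP, and without Fabp4, which made up most of the sum and is also made by endothelial cells, it was 18.0 to 39.5 and 52.5 to 116 CPM. The lowest of them, Adrb3, was at 0.0175 to 0.120 CPM, and none was at 0 in all libraries. The list shares Plin1, Cidec, Adrb3 and Aqp7 with the pathway lists below.

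Groups did not overlap for 6 of the 11 tested adipocyte markers, all lower in AAV9-HSA-CAAHR, and for Aqp7, which was higher. Among all tested genes 29.9% did not overlap. Adipoq, the fat cell hormone adiponectin, was at 2.87, 0.560 and 4.53 CPM in AAV9-HSA-CAAHR replicates 31, 34 and 36 and at 19.0, 4.09 and 10.9 CPM in AAV9-HSA-GFP replicates 42, 43 and 46, so its groups overlapped. The level of Ces1d relative to Adipoq per base of exon was 0.796 to 7.52 in AAV9-HSA-CAAHR and 1.01 to 5.12 in AAV9-HSA-GFP. Relative to Plin1 it was 5.52 to 25.3 and 4.49 to 13.1. Both ratios overlapped between the groups, while Adipoq and Plin1 themselves varied widely within them. The ratio of Lipe to Adipoq did not overlap, at 1.85 to 8.95 in AAV9-HSA-CAAHR and 0.345 to 1.14 in AAV9-HSA-GFP. The part of fat cells in the level of Ces1d was not tested.

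Markers of other cells were read in the same way. Hepatocyte markers, relevant because Ces1d is abundant in liver, were near 0, with 6 markers summing to 0.263 to 0.356 CPM in AAV9-HSA-CAAHR and 0.264 to 0.812 CPM in AAV9-HSA-GFP, and Apoa1 at the floor in every library. The summed level of 6 macrophage markers, all 6 tested with fitted values below 0 and none with an adjusted p under 0.05 in edgeR (4 at an unadjusted p under 0.05, 4 called in DESeq2 and 1 in limma-voom), was 18.4 to 33.0 against 39.0 to 76.7 CPM. The sum of 5 B cell markers was 8.38 to 18.4 against 122 to 397 CPM, most of it Ighm (7.8 to 17.8 against 121 to 392 CPM). In edgeR 3 of the 5 (Ighm, Cd79a and Cd79b) were called lower, beside 7.60% of all tested genes. Cd79a had 8, 10 and 13 against 18, 65 and 31 counts, and Cd79b had 5, 14 and 7 against 22, 55 and 28. Both passed the filter on low counts mainly through AAV9-HSA-GFP, so their calls are descriptions. Endothelial markers (5 genes) summed to 158 to 230 against 161 to 202 CPM and fibroblast markers (5 genes) to 284 to 517 against 404 to 498 CPM, so both overlapped. None of the 8 slow fibre markers was called in edgeR (7 at an unadjusted p under 0.05, 7 called in DESeq2 and 2 in limma-voom), and their median log2 fold change was 2.62. Their sum was 646 to 2772 CPM in AAV9-HSA-CAAHR and 227 to 460 CPM in AAV9-HSA-GFP, and Mgll, Lipe and Pnpla2 were lower in AAV9-HSA-CAAHR replicate 34, the library of its group with the lowest sum, than in replicates 31 and 36. Abhd5 was highest in replicate 34 (27.1 CPM against 26.6 and 25.9 CPM in replicates 31 and 36). The levels of Ces1d and G0s2 in replicate 34 lay between those in replicates 31 and 36. Of the 7 skeletal muscle markers, Acta1 and Ckm were called lower (adjusted p = 0.00895 and 0.0251 in edgeR), and 5 were not called. The part of fibre type or immune cells in the members' levels was not tested.

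**Figure D2:**
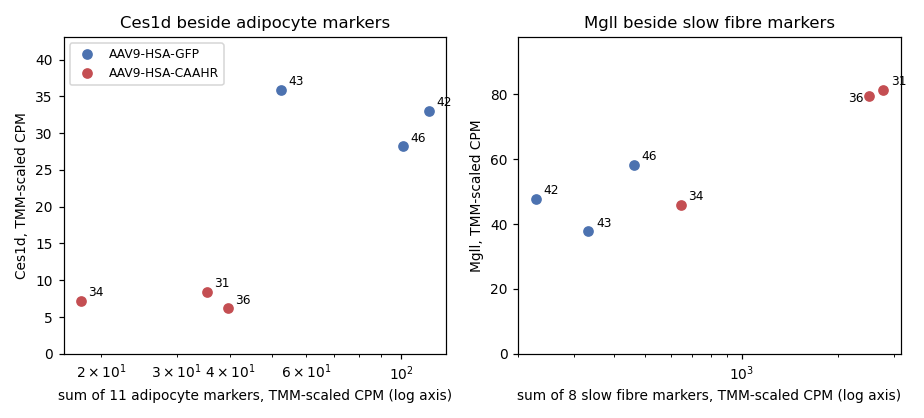
Left, Ces1d against the sum of 11 adipocyte markers (Fabp4 left out), and right, Mgll against the sum of 8 slow fibre markers, in TMM-scaled CPM (linear vertical axes from 0, logarithmic horizontal axes). Each point is a library with its replicate number. The AAV9-HSA-CAAHR libraries lie lower on both axes of the left plot (adipocyte sums of 18.0 to 39.5 against 52.5 to 116 CPM), and Mgll is highest in replicates 31 and 36, which have the highest slow fibre sums.

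The rest of the pathway was read from 5 lists with 84 genes that exclude the 10 members, of which 62 were tested. In edgeR 8 of the 62 (12.9%, against 7.60% of all tested genes) had an adjusted p under 0.05, of which 7 were lower and 1 was higher in AAV9-HSA-CAAHR. The 7 lower include Ces1e and Faah, which passed the filter on low counts only or mainly through AAV9-HSA-GFP. The 12.9% is therefore given as a description. With at least 10 counts required in every library, 5 pathway genes were called. The median log2 fold change of the 62 was 0.05, against 0.01 over all tested genes, and their fitted values were split between 34 higher and 28 lower. Leaving out AAV9-HSA-CAAHR replicate 34 raised the count of 8 calls to 17, and leaving out any other library lowered it to between 2 and 4. Only Abhd6 and Pde3b passed in all 6 fits that left out a library. The adipocyte sum without Fabp4 and the macrophage and B cell sums were lower in AAV9-HSA-CAAHR as well, and their part in the 7 lower genes was not tested.

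Among the 14 other carboxylesterases, 10 were at the floor of 3 counts in every library, 2 were tested and Ces1e was lower. Ces1e, a neighbour of Ces1d in the cluster, had 0, 0 and 5 counts in AAV9-HSA-CAAHR muscle and 14, 12 and 27 counts in AAV9-HSA-GFP muscle. The groups did not overlap, and the pooled counts of 5 and 53 gave a depth-corrected ratio of 12.5 in favour of AAV9-HSA-GFP (exact 95% interval 5.04 to 40.1, counting error only, adjusted p = 0.0327 in edgeR). The call was lost without AAV9-HSA-CAAHR replicate 31 (adjusted p = 0.104 in edgeR) or without AAV9-HSA-GFP replicate 42, 43 or 46 (0.0656, 0.0647 and 0.124). Because Ces1e passed the filter on low counts only through its AAV9-HSA-GFP libraries, its call is given as a description. Ces2c, the other tested gene, had a log2 fold change of -0.70 ± 1.05 and was not called.

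Of 23 other lipases and esterases, 18 were tested, 3 were lower and 15 did not pass. Abhd6, which like Mgll hydrolyses monoacylglycerol, was at 5.08, 5.53 and 5.56 CPM in AAV9-HSA-CAAHR replicates 31, 34 and 36 and at 8.70, 9.45 and 8.29 CPM in AAV9-HSA-GFP replicates 42, 43 and 46. Both groups were tight and well separated, with a log2 fold change of -0.71 ± 0.12 and an adjusted p of 0.00876 in edgeR. Because Mgll leaned the other way, the ratio of Abhd6 to Mgll per base of exon was 0.134 to 0.259 in AAV9-HSA-CAAHR and 0.305 to 0.536 in AAV9-HSA-GFP.

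Dagla and Faah, which make and degrade endocannabinoid lipids, were the other 2 genes of this list that fell. Dagla was at 11.3, 14.8 and 9.74 CPM in AAV9-HSA-CAAHR and 18.5, 21.0 and 17.9 CPM in AAV9-HSA-GFP (log2 fold change -0.68 ± 0.15, adjusted p = 0.0288 in edgeR). Faah was low, with 5, 12 and 5 counts against 21, 30 and 20 counts. Its log2 fold change was -1.94 ± 0.48 (adjusted p = 0.0417 in edgeR). Faah passed the filter on low counts mainly through its AAV9-HSA-GFP libraries, so its call is given as a description. The groups did not overlap for either gene, but both calls were lost in each fit that left out a library other than AAV9-HSA-CAAHR replicate 34, with adjusted p between 0.0653 and 0.102 for Dagla and between 0.0777 and 0.144 for Faah. The most abundant genes of this list, Lpl (0.84 ± 0.41), Lypla2 (0.05 ± 0.11) and Esd (0.14 ± 0.09), were not called on these log2 fold changes. Lpl, the lipase of the vessel wall that releases fatty acids from lipoproteins, was at 642, 208 and 429 CPM against 194, 277 and 245 CPM, and it was called higher without AAV9-HSA-CAAHR replicate 34.

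Of 13 lipid droplet proteins, 12 were tested, Hilpda was higher, Plin1 was lower and 10 did not pass. Hilpda, an inhibitor of Pnpla2, was at 2.31, 2.54 and 2.59 CPM in AAV9-HSA-CAAHR muscle and 1.29, 1.47 and 1.51 CPM in AAV9-HSA-GFP muscle, with no overlap. Its log2 fold change was 0.80 ± 0.19 (adjusted p = 0.0315 in edgeR), and the call was lost in each fit without a library other than AAV9-HSA-CAAHR replicate 34 (adjusted p 0.0651 to 0.114). Plin1, the perilipin of fat cells that holds Abhd5 at the droplet, was at 1.74, 0.560 and 2.20 CPM against 14.4, 5.36 and 10.9 CPM, a log2 fold change of -2.77 ± 0.58 (adjusted p = 0.0473 in edgeR). Plin1 is also one of the adipocyte markers whose sums are given above. Its call was lost without AAV9-HSA-CAAHR replicate 31 or 36 or AAV9-HSA-GFP replicate 42 or 46 (adjusted p 0.0953 to 0.130 in edgeR), with no filter on low counts (0.136), with a minimum of 10 counts (0.0507) and in limma-voom (0.0909).

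Plin2 and Plin5, the perilipins best known in muscle fibres, were not called in edgeR. Plin2 was at 21.3, 19.0 and 22.9 CPM in AAV9-HSA-CAAHR and 26.9, 25.4 and 30.0 CPM in AAV9-HSA-GFP (log2 fold change -0.38 ± 0.11, adjusted p = 0.0611 in edgeR, 0.0457 in DESeq2 and 0.0254 with no filter on low counts). Plin5, the perilipin of oxidative fibres, was at 32.5, 12.1 and 33.6 CPM against 5.95, 8.44 and 12.0 CPM (1.57 ± 0.48, adjusted p = 0.12 in edgeR and 0.0317 in DESeq2). Neither gene overlapped between the groups, though for Plin5 replicate 34, which had the lowest slow fibre sum of AAV9-HSA-CAAHR, lay only just above AAV9-HSA-GFP replicate 46. The 3 most abundant genes of the list were Fitm1 (log2 fold change -0.07 ± 0.12), Plin4 (0.14 ± 0.21) and Fitm2 (0.41 ± 0.11), and none was called in edgeR, while Fitm2 was in DESeq2 (adjusted p = 0.0234) and limma-voom (0.0360). Without AAV9-HSA-CAAHR replicate 34, Plin5 and Fitm2 were called higher.

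None of the 13 tested genes of triglyceride synthesis (of 15) was called in edgeR, DESeq2 or limma-voom, and 1 had an unadjusted p under 0.05 in edgeR. Dgat1 and Dgat2, the enzymes of its last step, had log2 fold changes of -0.18 ± 0.11 and 0.72 ± 0.41, and Dgat2, at 45.3, 19.4 and 51.1 CPM against 22.2, 17.5 and 30.4 CPM, was called higher without AAV9-HSA-CAAHR replicate 34. The most abundant genes, Lpin1 (0.19 ± 0.12), Agpat1 (-0.07 ± 0.09) and Agpat3 (0.25 ± 0.11), were not called.

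Of 19 genes of lipolysis signalling, 17 were tested, 2 were lower and 15 did not pass. Pde3b, the phosphodiesterase through which insulin restrains lipolysis, was at 1.60, 1.26 and 1.87 CPM in AAV9-HSA-CAAHR and 3.19, 3.87 and 3.98 CPM in AAV9-HSA-GFP. The groups were separate, with a log2 fold change of -1.22 ± 0.20 and an adjusted p of 0.00756 in edgeR. Prkar2b, a regulatory subunit of protein kinase A abundant in fat, was at 1.27, 1.21 and 1.35 CPM against 5.53, 2.24 and 2.87 CPM (-1.48 ± 0.32, adjusted p = 0.0273 in edgeR), and its call was lost without AAV9-HSA-CAAHR replicate 31 or 36 or AAV9-HSA-GFP replicate 46 (adjusted p 0.0929, 0.0905 and 0.0574 in edgeR) and in limma-voom (0.0763). The abundant subunits Prkar2a (-0.12 ± 0.10) and Prkaca (-0.03 ± 0.10) were not called. Fabp3, the fatty acid carrier of muscle, was at 578, 194 and 598 CPM against 115, 175 and 238 CPM (1.38 ± 0.51, adjusted p = 0.189 in edgeR), and it was called higher without AAV9-HSA-CAAHR replicate 34.

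**Figure D3:**
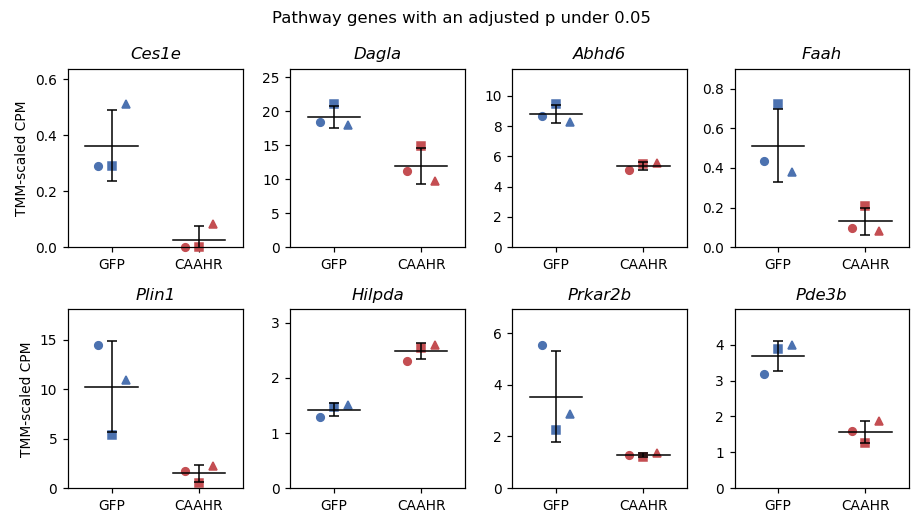
Level of the 8 pathway genes with an adjusted p under 0.05, in TMM-scaled CPM (linear axes from 0), in 3 AAV9-HSA-GFP (circle 42, square 43, triangle 46) and 3 AAV9-HSA-CAAHR libraries (circle 31, square 34, triangle 36), with means (lines) and SD (bars, cut at 0). The groups do not overlap for any of the 8, and Hilpda alone, at 2.31 to 2.59 against 1.29 to 1.51 CPM, is higher in AAV9-HSA-CAAHR. Ces1e and Faah passed the filter on low counts only or mainly through AAV9-HSA-GFP, so their calls are descriptions.

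**Figure D4:**
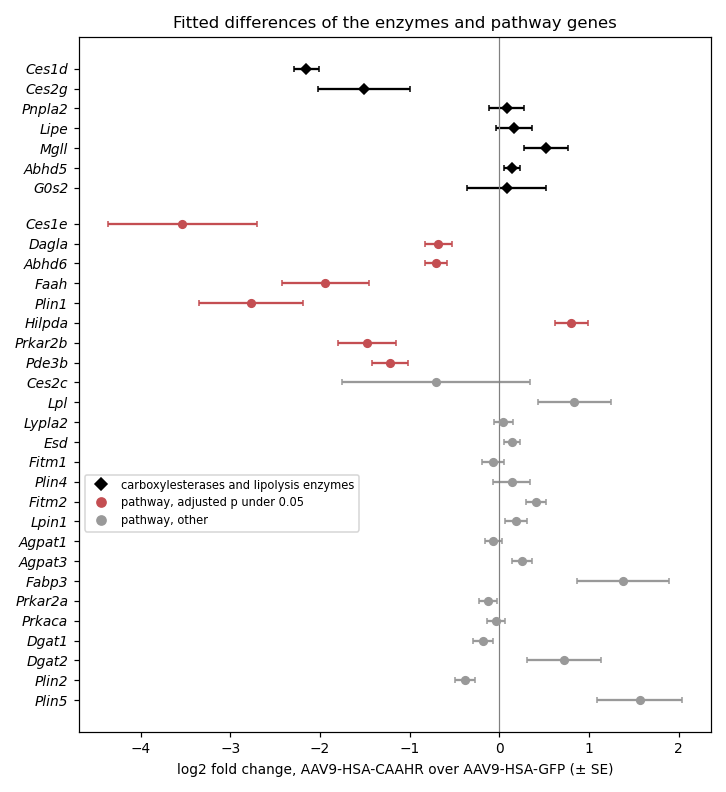
Fitted log2 fold change of AAV9-HSA-CAAHR over AAV9-HSA-GFP with its SE (horizontal bars) for the 7 fitted members (black diamonds, chosen on this contrast), the 8 pathway genes with an adjusted p under 0.05 (red) and the other pathway genes named (grey). Ces1d, at -2.15 ± 0.14, lies far from Pnpla2 (0.08 ± 0.19), Lipe (0.17 ± 0.20) and Abhd5 (0.14 ± 0.09).

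The genes whose pattern over the 6 libraries was most like that of Ces1d were sought among 12317 genes with a mean of at least 1 CPM in AAV9-HSA-GFP, by the root mean square distance between centred log2 CPM values. Among the closest were Golm1 (distance 0.117), a Golgi membrane protein, Hist1h1d (0.187), a linker histone, Cacna2d4 (0.198), a calcium channel subunit, and Nos1ap (0.208), an adaptor of neuronal nitric oxide synthase. Golm1 was at 9.93, 10.6 and 7.30 CPM in AAV9-HSA-CAAHR replicates 31, 34 and 36 and at 39.4, 48.0 and 34.1 CPM in AAV9-HSA-GFP replicates 42, 43 and 46, so the order of the libraries within AAV9-HSA-GFP was that of Ces1d. Of the 5 other members that were abundant enough to be compared (Pnpla2, Lipe, Mgll, Abhd5 and G0s2), the closest were Abhd5 with rank 7882 and Pnpla2 with rank 8203. Ces1f, Ces1g, Ces2e and Ces2g were below the limit of 1 CPM. The distance used the libraries and the contrast on which Ces1d was chosen, so it mainly returned genes with a similar difference. Golm1, Hist1h1d, Cacna2d4 and Nos1ap had log2 fold changes of -2.13, -2.23, -1.94 and -2.44. The limit used AAV9-HSA-GFP alone, and Hist1h1d and Nos1ap passed it only through that group. These distances and ranks are descriptions, and nothing is read from them.

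Promoter sequence was read from RefSeq (GRCm38.p6, 250 bases before to 50 after the start) for 8 of the 10 members, all but Ces1d and Ces1f, in 10 windows. The core of the AHR binding element, GCGTG on either strand, was present in 5 of the 10 windows, against 32.4% of the 32851 windows of all genes. It had 1 match each in a window of Lipe, Abhd5 and G0s2, and no match in those of Pnpla2, Ces1g, Ces2e and Ces2g. Mgll had 2 matches at its first start and 6 at its second, and 6 or more matches were found in 0.146% of all windows. The limit of 6 was taken from Mgll itself, so this share is only a description. A longer form of the element, TNGCGTG on either strand with N any base, was present in 5.07% of all windows. It had no match in any of the 10 windows of the members, those of Mgll included. The 250 bases before the first start of Mgll (chr6:88724162-88724411, plus strand) are shown as an example, with the core in capitals. They hold 2 matches, and the window with 6 matches is not shown.
Mgll: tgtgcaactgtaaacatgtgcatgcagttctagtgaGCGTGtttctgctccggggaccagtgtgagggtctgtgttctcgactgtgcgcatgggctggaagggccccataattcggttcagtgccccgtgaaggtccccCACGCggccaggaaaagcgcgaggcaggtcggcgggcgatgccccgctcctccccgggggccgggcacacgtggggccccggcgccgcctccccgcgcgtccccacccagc
These matches describe the letters of the windows, and binding of AHR was not measured in these libraries.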

How the data were processed

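The authors deposited whole-number counts per gene for each of the 6 libraries. According to the study's methods, poly(A)-selected RNA was sequenced in paired ends, and the submitters' processing notes name Trimmomatic 0.36, STAR 2.5.2b and GRCm38. Uniquely assigned exon reads had been counted per gene with featureCounts, with no normalisation and no pooling, and whether the counting used strand is not given in the sources used here. Groups and replicate numbers were taken from the sample titles.

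The groups were compared with edgeR 4.0.16 under R 4.3.3 (filterByExpr, which left 15847 of 49315 genes, TMM scaling, robust quasi-likelihood F test, Benjamini-Hochberg adjustment over all tested genes at 0.05). Standard errors were derived from the F statistic. CPM per kb used the union of exons in GENCODE release 21. No library repeated another, since the chi-square statistic of any pair within a group was 23.7 or more per degree of freedom. Intervals and limits for low counts cover counting error only. In data simulated from these libraries (15582 genes), 87.6% of genes changed 4-fold and 65.6% of genes changed 2-fold were called, counted among genes that passed the filter. There were also 12 false calls. Each gene was drawn independently, so the simulated libraries lack the departure of AAV9-HSA-CAAHR replicate 34 over many genes. The shares may therefore be higher than in these data. DESeq2 1.42.0, limma 3.58.1, other scalings, other filters and each library left out in turn were alternatives.

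The members and gene lists were chosen with earlier results of these data known. Named are all members, pathway genes with an adjusted p under 0.05, the 3 most abundant tested genes per kb of each pathway list, Lpl, Dgat1, Dgat2, Plin2, Plin5, Hilpda and Abhd6, and the 5 genes most like Ces1d, of which 1 is not reported here. Adipocyte markers without Fabp4, and the singling out of replicate 34, Retn, Cfd, Adipoq, Cebpa, Ppara, Pparg and Ppard, were chosen after their values were seen. The same holds for Ahr, Cyp1b1, Ahrr, Acta1 and Ckm.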

Additional observations from a re-analysis of the deposited data

How the results depend on the processing

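The fall of Ces1d kept its direction under all 14 alternatives, with log2 fold changes from -2.28 to -2.05. Of 431 values checked for 31 genes that are not members, 376 kept their call, 40 were no longer called and 15 were newly called. For the 6 other fitted members, read as values, 80 of 83 moved by less than the replicate spread and 3 by more (Ces2g without AAV9-HSA-GFP replicate 42, and Abhd5 at 0.07 with upper quartile scaling and 0.22 with library size only). No value called with all libraries changed sign. The count of all called genes was 1205, and it became 2470 with no filter on low counts and 1923 with DESeq2, and 530 to 1727 when a library was left out. In place of 8 pathway calls, there were 13 with no filter on low counts, 14 with DESeq2 and 5 with at least 10 counts in every library. Under that last filter Ces1e and Faah were not tested, and Plin1 was not called. Leaving out a library gave 2 to 17 pathway calls (17 without AAV9-HSA-CAAHR replicate 34, 2 without AAV9-HSA-CAAHR replicate 31). The cause of these moves was not tested, apart from the fewer libraries or genes of the setting itself. The share of calls that were lower was 60.1%, and it was 73.4% with upper quartile scaling and 40.7% with library size only, which moved the median log2 fold change of all genes from 0.01 to -0.06 and to 0.09. Fitted values of Pnpla2, Lipe and G0s2 changed sign in 3, 1 and 2 of 14 alternatives, and those of Mgll and Abhd5 in none. Leaving out a library leaves 2 in its group. No paired analysis was possible because no replicate number occurs in both groups. Depth limits Ces1f, Ces1g, Ces2e, Ces2g, Ces1e and Faah, which rest on few counts.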

Other observations

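Of 8 transcription factors and coactivators that control lipolysis and carboxylesterase genes in fat and liver, Cebpa was lower and the other 7 were not called in edgeR, beside 7.60% of all tested genes called. Cebpa, a factor of fat cells, liver and myeloid cells, was at 2.73, 2.05 and 3.38 CPM in AAV9-HSA-CAAHR replicates 31, 34 and 36 and at 7.90, 4.78 and 8.16 CPM in AAV9-HSA-GFP replicates 42, 43 and 46, with no overlap and a log2 fold change of -1.35 ± 0.25 (adjusted p = 0.0136 in edgeR). The call was lost without AAV9-HSA-CAAHR replicate 31 (adjusted p = 0.0594 in edgeR) or AAV9-HSA-GFP replicate 46 (0.0591). Ppara, which drives genes of fatty acid use, was at 12.7, 3.41 and 13.4 CPM against 1.70, 2.98 and 3.02 CPM (1.94 ± 0.57, adjusted p = 0.109 in edgeR, 0.0238 in DESeq2 and 0.000281 in edgeR without AAV9-HSA-CAAHR replicate 34), with replicate 34 again close to the AAV9-HSA-GFP libraries. Pparg, the factor of fat cell differentiation, had a log2 fold change of 0.02 ± 0.23 and Ppard of 0.02 ± 0.10. Adipocyte markers other than Fabp4 summed to 18.0 to 39.5 CPM in AAV9-HSA-CAAHR and 52.5 to 116 CPM in AAV9-HSA-GFP, and their part in the level of Cebpa was not tested.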
